A study of Sus scrofa with 23 samples.

Results

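The genes described here encode the protein parts of the ribosome of the cytosol. They were found by symbol among the probe sets, the sets of short oligonucleotides with which the array reads a transcript, that carry exactly 1 gene symbol: symbols that start with RPL or RPS and a digit, and RPLP0, RPLP1, RPLP2, RPSA and FAU, without the RPS6K kinases and the symbols that end in L or L1. This gave 96 of the 24123 probe sets, for 60 of the 6765 genes with a symbol of their own. Of the 60 genes, 34 encode proteins of the large subunit and 25 of the small subunit. The remaining gene, RPS19BP1, is taken by the spelling of its symbol; its product binds RPS19 and is not a ribosomal protein. One probe set was read for 35 genes, 2 for 16 genes and 3 or more for 9 genes. RefSeq (Sscrofa11.1) lists 78 pig symbols under the same rule, and 18 of them, among them RPL10, RPS3 and RPS14, were not measured by a probe set with 1 symbol.

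The study compared articular cartilage of pigs with and without osteochondrosis, a disorder in which growing joint cartilage fails to ossify in order, on the Affymetrix Porcine Genome Array. The pigs came from a Duroc x Pietrain cross and are described as affected and non-affected sib-pairs. The cartilage came from the medial part of the condyle of the humerus, at the elbow, or from the medial condyle of the femur, at the knee. There were 23 arrays: 6 of non-affected humerus, 8 of affected humerus, 5 of non-affected femur and 4 of affected femur. Over the probe sets the difference of humerus affected 5 and 6 had a standard deviation of 0.108, and that of femur non-affected 1 and 2 of 0.214, so each pair was averaged and counted as 1 sample, which left 21 samples (6, 7, 4 and 4). The labels give neither the sib-pairs nor an age, nor whether each array of a group is a different animal; p-values thus measure no more than the spread among these samples, which may be technical. Values are deposited log2 signals, and a difference is given on that scale, with non-affected subtracted from affected or humerus subtracted from femur. All were tested with limma over the 16799 probe sets with a mean of at least 5.30 (the 30th percentile), and a call is a Benjamini-Hochberg adjusted p under 0.05.

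A ribosome has a small subunit, which reads the messenger RNA, and a large subunit, which forms the peptide bonds; each is built of ribosomal RNA and of proteins present in 1 copy, apart from the stalk proteins. Ribosomal protein messengers are among the most abundant in nearly all cells, and most start with a terminal oligopyrimidine tract, through which growth signals such as mTOR set their translation more than their level. Chondrocytes, which secrete the collagen and proteoglycan of cartilage, depend on a large capacity for protein synthesis.

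The chondrocyte markers were strongly read in all samples: the mean of 6 genes, among them ACAN, COL2A1 and SOX9, lay between 11.12 and 12.34. Markers of other cells were read as well. The mean of 8 myeloid genes ran from 5.73 to 9.84 in the humerus and from 4.67 to 8.30 in the femur, that of 5 neutrophil genes from 4.76 to 11.60 and from 4.04 to 6.75, and that of 8 osteoblast and bone matrix genes from 7.67 to 10.71 and from 7.08 to 9.05. Means of 5 osteoclast genes ran from 6.85 to 9.78 in the humerus and from 6.18 to 7.66 in the femur, those of 6 endothelial genes from 5.77 to 8.18 and from 4.89 to 7.13, those of 4 erythroid genes from 5.88 to 8.50 and from 5.52 to 7.85, those of 3 adipocyte genes from 5.45 to 7.94 and from 5.88 to 6.93, and those of 7 skeletal muscle genes from 4.89 to 8.17 and from 5.15 to 8.65. In such bulk tissue, fewer cells of a type and less RNA per cell cannot be told apart. The arrays of the sites also differ in signals that come from no tissue: the mean of the 9 hybridisation control probe sets, which read RNA added to the sample, was 10.42 ± 0.09 (SD, n = 13; 10.23 to 10.56) in the humerus and 11.55 ± 0.08 (SD, n = 8; 11.41 to 11.65) in the femur, with no overlap. Within a site it differed little by status, at 10.43 and 10.40 in non-affected and affected humerus and 11.53 and 11.56 in non-affected and affected femur. The array median was 6.27 in the humerus and 6.09 in the femur. The labels give no batch, so the joint and the handling of its arrays cannot be told apart. Site differences are given as deposited, and many of them also after quantile normalisation over all arrays, which sets every array to the same distribution. A site difference with no scale named is as deposited.

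Ribosomal protein transcripts gave some of the brightest signals of the array. The probe sets fell into 2 classes with none between: 59 probe sets, for 55 genes, had means from 13.004 to 14.02, and the other 37 had means from 4.36 to 11.05. The bound of 12 between the classes was chosen after these values were seen. Of the 292 non-control probe sets above 12, 59 (20.2%) read ribosomal protein genes, and the 59 stood between percentiles 99.29 and 99.98 of the array. Brightness also depends on the oligonucleotides, so the classes describe probe sets and do not rank genes by abundance. The genes with no bright probe set were RPL26, RPL30, RPL37, RPS15A and RPS19BP1. A value at the table's floor of 4 occurred in 4 member probe sets, none of which was tested. The 8 probe sets under the 30th percentile read FAU (2 probe sets), RPL13A, RPL30, RPL34, RPL7, RPS12 and RPS25, and RPL30 was the only gene with no probe set tested. The tests therefore cover 88 probe sets of 59 genes.

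The bright probe sets varied little between samples of a group. Their within-group standard deviation was 0.04 to 0.15 (median 0.08), against 0.16 to 0.61 (median 0.26) in the dim class. Within a site, the 59 bright probe sets moved together in the femur more than in the humerus as deposited: the median Pearson correlation over pairs of probe sets was 0.68 across the 8 femoral samples and 0.17 across the 13 humeral samples. After quantile normalisation these medians were 0.18 and 0.15. All probe sets of an array share its scaling, so these values are a description of the arrays.

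Averaged over the 59 bright probe sets, the level was 13.64 ± 0.04 (SD, n = 6) in non-affected and 13.66 ± 0.03 (SD, n = 7) in affected humerus, and 13.41 ± 0.08 (SD, n = 4) in non-affected and 13.37 ± 0.08 (SD, n = 4) in affected femur. Humeral samples lay between 13.60 and 13.71 and femoral samples between 13.28 and 13.52, so the sites did not overlap, and the status groups overlapped at both sites. The other 233 probe sets above 12 had a mean of 12.93 in the humerus and 12.71 in the femur. The median percentile of the bright members within the array was 99.70 ± 0.02 (SD, n = 13) in the humerus and 99.71 ± 0.02 (SD, n = 8) in the femur, a difference smaller than the spread.

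**Figure D1:**
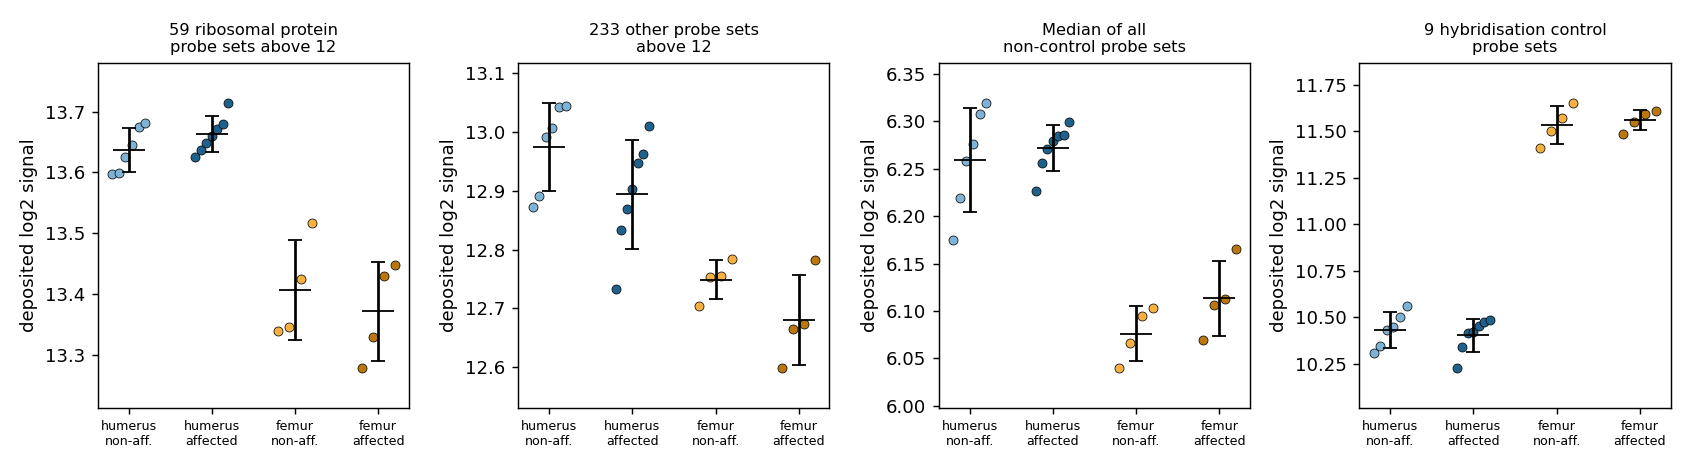
Mean deposited log2 signal of each of the 21 samples for 4 sets of probe sets, by joint and status; points are samples, horizontal marks the group mean and bars 1 SD, and each panel has its own axis. Ribosomal protein probe sets lie at 13.60 to 13.71 in the humerus and at 13.28 to 13.52 in the femur, as the other bright probe sets and the array median also lie lower in the femur, while the hybridisation controls lie higher there.

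Femur against humerus was the comparison in which most members were called. As deposited, 74 of 88 probe sets were called, 13 higher and 61 lower in the femur, where 51.8% of all probe sets tested were called (17.6% higher and 34.2% lower). The median difference was -0.26, against -0.12 over all probe sets tested. After quantile normalisation 31 of 88 were called, 20 higher and 11 lower, where 51.3% of all probe sets were called (27.9% higher and 23.4% lower), and the median was -0.0044 against 0.03 over all. With each array centred on its median, 45 were called, 17 higher and 28 lower, with a median of -0.09. In 33 of the 88 the deposited values of the sites did not overlap, which held for 4.51% of all probe sets. Of these 33, 29 were bright.

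Of the 59 bright probe sets, 56 were lower in the femur as deposited, by between -0.07 (RPS27) and -0.51 (RPS18). Of the 59, 51 were called, all lower, with a median of -0.28, and the median of the other bright probe sets was -0.22, with 135 of 233 called. After quantile normalisation 10 of the 59 (16.9%) were called, 5 in each direction, with a median of -0.02. Of the other 233 bright probe sets, 89 (38.2%) were then called, 38 higher and 51 lower, with a median of -0.03. Of the 56, 22 had a positive difference after normalisation. RPS10 and RPS27 were the 2 of these called higher. The bright probe sets of the large subunit had a median of -0.29 (30 of 33 called) and those of the small subunit -0.22 (21 of 26 called). After quantile normalisation these medians were -0.03 and -0.0099, with 6 of 33 (18.2%) and 4 of 26 (15.4%) called.

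Unless another is named, the values of a gene are those of its brightest probe set. Among proteins of the core of the large subunit, RPL3, which reaches the peptidyl transferase centre, differed by -0.34 ± 0.06 (SE) and by -0.03 after quantile normalisation. RPL4, RPL17 and RPL22 are placed around the exit tunnel of the nascent chain. RPL17 had one of the largest differences of a bright probe set: it was 13.69 to 13.95 (median 13.84) in the humerus and 13.22 to 13.47 (median 13.30) in the femur, with no overlap. Its difference was -0.50 ± 0.06 (SE, limma adjusted p = 1.8e-06), and it was called on the normalised scale as well (-0.24, adjusted p = 0.0015). RPL4 and RPL22 were lower by -0.26 and -0.33 as deposited, both called, and differed by 0.06 and -0.04 after normalisation, neither called. RPL21, a further protein of the large subunit, read 13.41 to 13.55 (median 13.49) in the humerus and 12.86 to 13.14 (median 12.96) in the femur. The groups lay apart, by -0.51 as deposited and -0.21 after normalisation, both called.

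RPL5 and RPL11 carry the 5S ribosomal RNA into the large subunit and can bind MDM2, the ubiquitin ligase of p53. RPL5 differed by -0.33 and RPL11 by -0.18 as deposited, both called, and by -0.11 and 0.02 after normalisation, neither called. RPL23, which can also bind MDM2, was read by 3 probe sets that did not move alike. The bright one (Ssc.806.1.S1_at) was 13.84 to 13.99 (median 13.92) in the humerus and 13.35 to 13.64 (median 13.44) in the femur, a difference of -0.43 ± 0.06 (SE). A dim one from the same sequence cluster (Ssc.806.1.A1_at) was 8.61 to 9.60 (median 9.25) in the humerus and 9.99 to 10.44 (median 10.27) in the femur, a difference of 1.11 ± 0.12 (SE). The third (Ssc.10295.1.A1_at) was 8.85 to 10.10 (median 9.22) in the humerus and 7.77 to 8.57 (median 8.11) in the femur, a difference of -1.19 ± 0.16 (SE). In none of the 3 did the sites overlap, and all 3 were called on both scales, 2 lower and 1 higher.

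The stalk of the large subunit, which recruits the elongation factors, is made of RPLP0 and pairs of RPLP1 and RPLP2, on a base that includes RPL12. Its members differed among themselves. RPLP0 was lower in the femur by -0.22 ± 0.05 (SE) and RPLP1 by -0.18 ± 0.06 (SE) as deposited, both called, and neither was called after normalisation (-0.02 and 0.07). These are their bright probe sets. The dim probe set of RPLP0 differed by -0.06, which was not called. The dim one of RPLP1 (Ssc.17551.1.A1_at), at 6.96 to 8.51 (median 7.95) in the humerus and 8.08 to 8.88 (median 8.56) in the femur, was higher by 0.68 ± 0.16 (SE) as deposited and by 0.83 after normalisation, called on both scales. RPLP2 read 12.78 to 13.10 (median 12.94) in the humerus and 12.99 to 13.25 (median 13.10) in the femur, which overlap. Its difference of 0.14 ± 0.06 (SE) was not called as deposited (adjusted p = 0.0741), and after normalisation it was the largest of any bright member (0.44, adjusted p = 1.5e-05). The bright probe set of RPL12 was lower by -0.42 ± 0.05 (SE) as deposited and differed by -0.11 after normalisation, where it was not called. A dim one of another sequence cluster (Ssc.17945.1.A1_at) was lower by -0.44 ± 0.09 (SE) as deposited and by -0.30 after normalisation, called on both scales. RPLP2, RPL34 and RPS2 were the only 3 bright probe sets with a positive difference as deposited. For RPL34 it was 0.09 as deposited and 0.40 after normalisation, and for RPS2, which lies at the messenger RNA entrance of the small subunit, 0.07 and 0.25. Both were called only after normalisation.

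In the small subunit, RPS18 had 3 bright probe sets, all called lower in the femur. The one with the largest difference (Ssc.11132.1.S1_a_at) was 14.01 to 14.16 (median 14.08) in the humerus and 13.36 to 13.72 (median 13.62) in the femur, with no overlap, a difference of -0.51 ± 0.06 (SE) as deposited and -0.39 after normalisation, both called. The other 2 differed by -0.29 each as deposited and by -0.01 and 0.0050 after normalisation, where neither was called. So the probe sets of a single gene differed in size as well. RPS6, the substrate of the S6 kinases below mTOR, was 13.52 to 13.76 (median 13.58) in the humerus and 13.03 to 13.24 (median 13.15) in the femur, a difference of -0.45 ± 0.06 (SE) that was -0.14 and not called after normalisation. RPSA, also known as the laminin receptor precursor, was lower by -0.35 ± 0.08 (SE) as deposited and differed by -0.05 after normalisation. RPS19, RPS27 and RPS27A, the last made as a fusion with ubiquitin, had differences of -0.11, -0.07 and -0.08 at their bright probe sets, none called as deposited. After normalisation these were 0.0019, 0.15 and -0.03, and RPS27 was called higher (limma adjusted p = 0.0236). The dim probe set of RPS27 was called lower on both scales, by -0.94 and -0.77. RPS10, named after its values were seen, likewise went from -0.11, not called, to 0.13 after normalisation (limma adjusted p = 0.0366).

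Of the 74 probe sets called as deposited, 24 were also called after quantile normalisation, all in the same direction: 13 higher and 11 lower. Only 5 of the 24 were bright, all lower: 1 each of RPS18, RPL17, RPL21, RPL23 and RPL27. A further 7 probe sets, RPS10 and the bright one of RPS27 among them, were called only after normalisation.

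**Figure D2:**
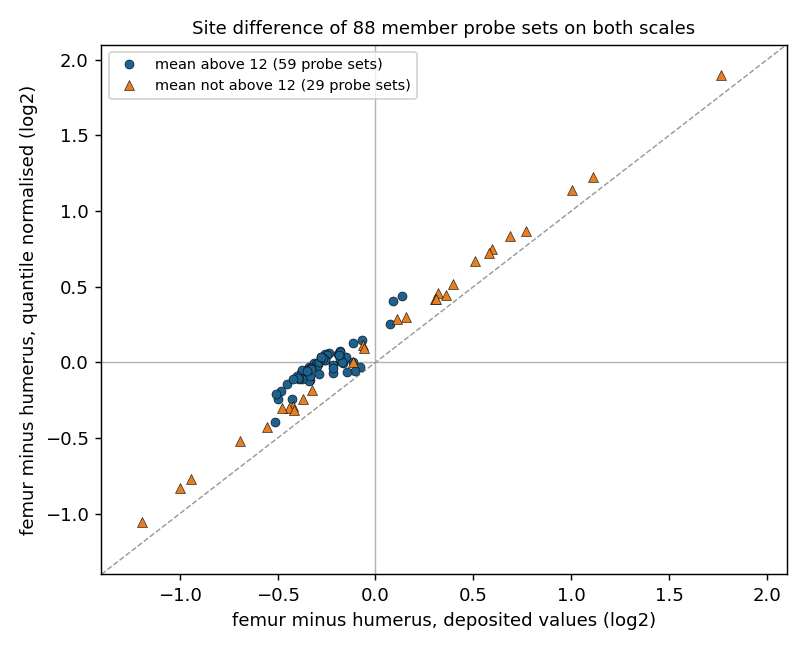
Femur minus humerus of the 88 tested probe sets, as deposited (horizontal axis, log2) and after quantile normalisation (vertical axis, log2); circles are the 59 bright and triangles the 29 dim probe sets, and the dashed line marks equal values. Bright probe sets gather around -0.28 as deposited and around -0.02 after normalisation, while dim ones spread from -1.19 to 1.76.

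The dim probe sets went both ways. Of 29 tested, 23 were called, 13 higher and 10 lower, with differences from -1.19 to 1.76; after normalisation 21 were called, 15 higher and 6 lower. All 13 members called higher as deposited were thus dim. Of the 22 genes with more than 1 probe set tested, 11 had probe sets called in opposite directions as deposited, and 4 after normalisation (RPL17, RPL23, RPL27 and RPS27). The same share over all genes with several probe sets was not computed, so these counts describe the members only. Over all probe sets tested, 17.6% were called higher and 34.2% lower as deposited. Among the 11 are RPL6, RPL17, RPL23, RPL24, RPL32 and RPS6, whose orientation pairs are described below. RPS27A is an example of the lower direction: its bright probe set differed by -0.08, and its dim one, at 6.22 to 7.37 (median 6.92) in the humerus and 5.48 to 6.36 (median 5.99) in the femur, by -0.997 ± 0.13 (SE).

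Pairs of probe sets from 1 sequence cluster were present for 8 genes; their identifiers differ only in an S or an A, the letters that mark the orientation of the sequence used for the design: RPL6, RPL12, RPL13A, RPL17, RPL23, RPL24, RPL32 and RPS6. This group was formed after values had been seen and is given as a description. In each, 1 probe set was bright and 1 dim. The bright one was lower in the femur in all 8 (7 called; RPL13A, at -0.11, was not), and the dim one was higher in 7, all called. In the eighth, RPL12, the dim one differed by -0.11, which was not called. RPL32 is the clearest case after RPL23. Its bright probe set was 13.77 to 13.89 (median 13.85) in the humerus and 13.40 to 13.69 (median 13.58) in the femur, and its dim one 8.10 to 8.82 (median 8.53) and 9.13 to 9.80 (median 9.51); neither overlapped. The differences were -0.29 ± 0.05 (SE) and 1.005 ± 0.11 (SE). After normalisation they were -0.08, not called, and 1.14, called. Over the 8 genes the median difference was -0.41 for the bright and 0.50 for the dim probe sets, and -0.10 and 0.63 after normalisation. Of 65 such pairs among other probe sets, the dimmer one was higher in the femur in 39, with medians of 0.07 for the brighter and 0.15 for the dimmer. In the 7 of these whose brighter probe set was above 12 the medians were -0.22 and 0.40. Among those 7 the dimmer one was higher in 4, all called, and 1 was called lower.

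**Figure D3:**
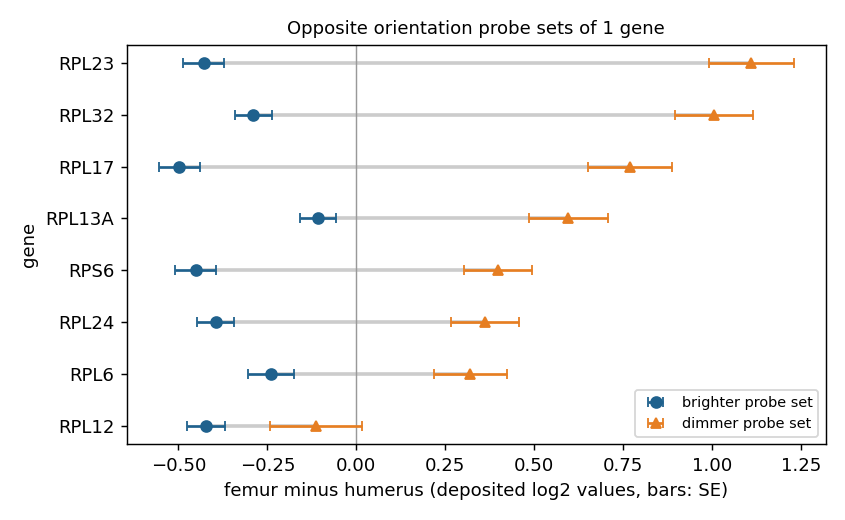
Femur minus humerus (deposited log2 values) in the 8 genes with a pair of probe sets of opposite orientation; circles are the brighter and triangles the dimmer probe set, bars are 1 SE and grey lines join a pair. All 8 circles lie below 0, and 7 of the 8 triangles lie above it, from 0.32 (RPL6) to 1.11 (RPL23).

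Few members differed by disease status. In the humerus none of the 88 probe sets was called, where 0% of all probe sets were called by limma; at an unadjusted p under 0.05 there were 3 members and 1100 of all probe sets. The median difference was 0.03 against -0.01 over all, with 61 positive and 27 negative. The 59 bright probe sets ranged from -0.07 to 0.21, with standard errors of 0.06 to 0.10. In no member did the 2 status groups lie apart, as 0.22% of all probe sets did. The smallest p was that of RPL34, whose values were 12.75 to 13.28 (median 13.07) in non-affected and 13.10 to 13.47 (median 13.21) in affected humerus, a difference of 0.21 ± 0.09 (SE, limma adjusted p = 0.759). Over both sites together again none was called, as were 0% of all probe sets, with 2 members and 1223 of all at an unadjusted p under 0.05, and a median of 0.0049.

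In the femur 1 of 88 members was called, lower in affected cartilage, where 1.14% of all probe sets were called (0.393% higher and 0.75% lower). The members' share is close to that of all probe sets. The median difference was -0.04 against 0.01 over all, with 29 positive and 59 negative. The bright probe sets ranged from -0.16 (RPL9) to 0.09 (RPS24), 12 positive and 47 negative, with standard errors of 0.08 to 0.12. Their median was -0.04, the same as that of the other 233 bright probe sets, of which 91 were positive and 142 negative. After quantile normalisation 36 members were positive and 52 negative, with a median of -0.01. The status groups of the femur did not overlap in 2 members, a probe set of FAU and RPS19BP1, and in 8.08% of all probe sets.

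**Figure D4:**
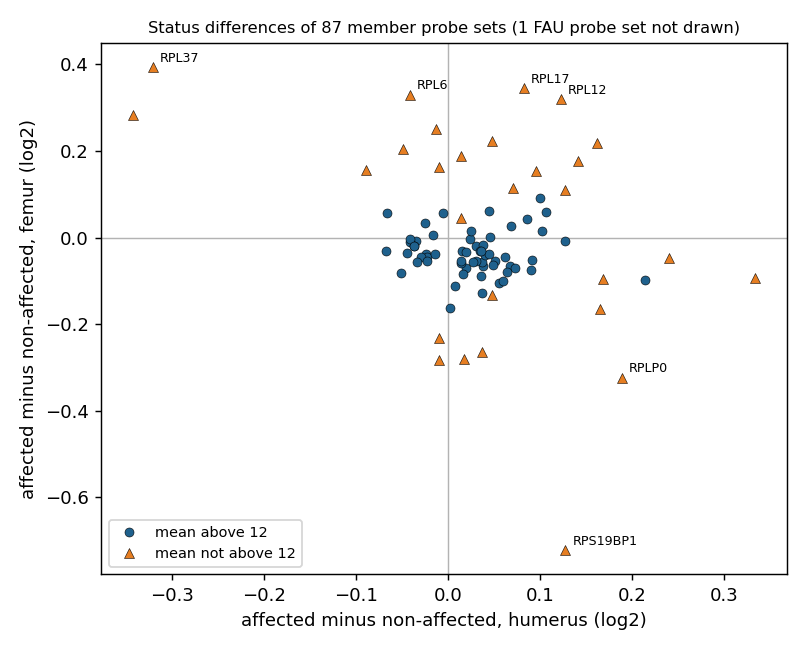
Affected minus non-affected (log2) in the humerus, horizontal, and in the femur, vertical, for 87 tested probe sets; circles are bright and triangles dim, with gene names for femoral differences past 0.3, and the FAU probe set at -2.89 in the femur and 0.17 in the humerus is not drawn. Bright probe sets lie within -0.16 to 0.09 in the femur and -0.07 to 0.21 in the humerus.

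The called probe set is annotated by the platform as FAU, whose product is cut into the small subunit protein RPS30 and a ubiquitin-like protein. FAU had 5 probe sets, and 1 of them (Ssc.11403.2.A1_at) was called. In non-affected femur it read 8.86, 8.79, 7.95 and 8.57, and in affected femur 6.78, 4.64, 5.73 and 5.45. In the humerus it read 4.99 to 5.45 (median 5.12) in non-affected and 4.96 to 5.83 (median 5.29) in affected samples. All 4 non-affected femoral samples thus stood above all 17 others. The difference in the femur was -2.89 ± 0.31 (SE, limma adjusted p = 4.2e-05; -2.88 and 5.0e-05 after normalisation), in the humerus 0.17 ± 0.24 (SE). The difference between both was -3.07 ± 0.39 (SE, adjusted p = 0.00118), the only member called for it, where 0.268% of all probe sets were. With the femoral samples fitted alone, the size was the same and the adjusted p was 0.0783. The site difference of this probe set, 1.76, rests on the non-affected femur as well, since the affected femur overlapped the humerus.

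None of the other FAU probe sets was called. The bright one (Ssc.11087.1.S1_at) read 13.69, 13.56, 13.39 and 13.44 in non-affected and 13.46, 13.53, 13.29 and 13.40 in affected femur, a difference of -0.11 ± 0.10 (SE). Those values overlap. Ssc.17181.1.S1_at, at 9.95, 10.08, 10.02 and 9.68 against 9.74, 9.50, 9.77 and 9.80, differed by -0.23 ± 0.13 (SE). The remaining 2 (Ssc.11403.1.S1_at and Ssc.11403.3.A1_at) had means of 5.15 and 4.36 and were too dim to test; in the femur they read at most 5.43 and 4.65. Whether the called probe set reads the FAU messenger was not tested. The marker lists differed by status in the femur as well, with no gene called. All 6 chondrocyte genes were higher in affected femur, with a median of 0.49; their mean was 11.19 to 11.69 in non-affected and 11.75 to 12.34 in affected samples, with no overlap. All 8 myeloid genes were lower, with a median of -1.94: their mean was 6.29 to 8.30 in non-affected and 4.67 to 6.57 in affected samples, which overlap. In the humerus the mean of the 8 myeloid genes was 5.73 to 9.84. All 5 endothelial genes tested were lower in affected femur, with a median of -0.94. KDR, too dim to test, had means of 4.74 in non-affected and 4.91 in affected femur. The mean of all 6 endothelial genes overlapped, at 4.89 to 7.13 in non-affected and 4.90 to 6.83 in affected samples. All 4 erythroid genes were higher, with a median of 0.43, and the other lists went both ways. Their part in the result was not tested.

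**Figure D5:**
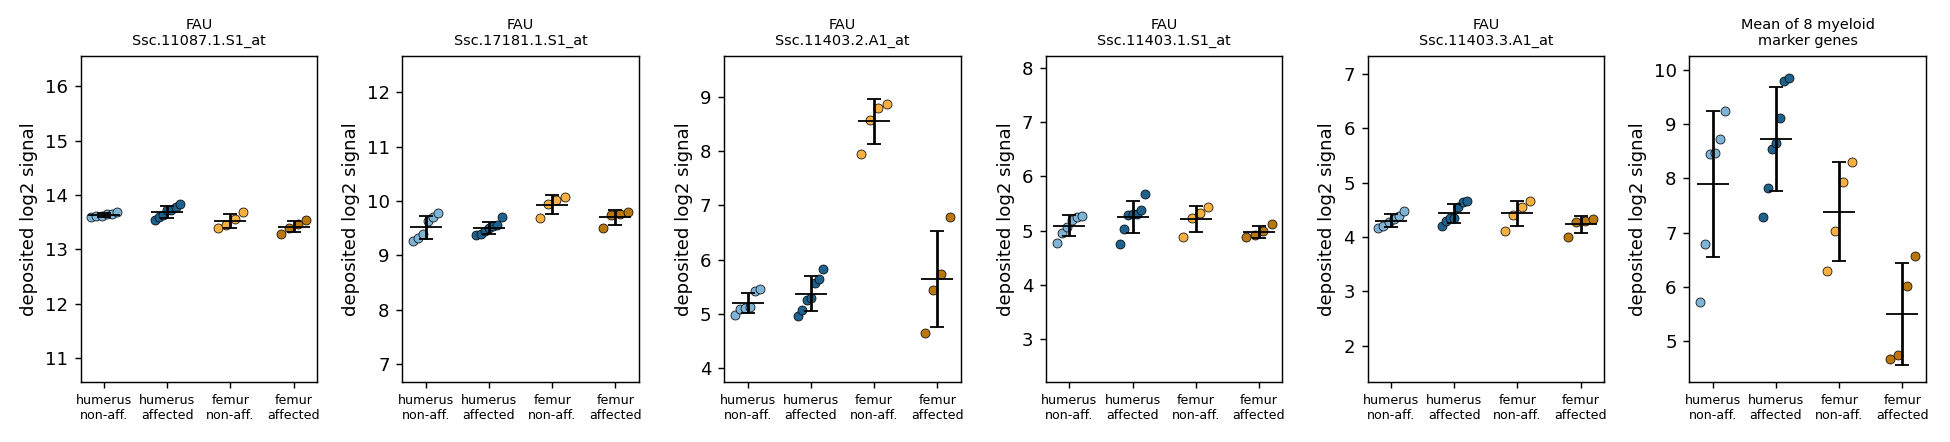
Deposited log2 signal of the 5 FAU probe sets and the mean of 8 myeloid marker genes in the 21 samples, by joint and status; points are samples, horizontal marks the group mean, bars 1 SD, and every panel spans the same 6 log2 units. Only Ssc.11403.2.A1_at separates a group, the non-affected femur at 7.95 to 8.86.

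RPS19BP1 was the next in the femur. It read 9.11, 9.81, 9.40 and 9.17 in non-affected and 8.71, 8.44, 8.64 and 8.81 in affected femur, so the groups lay apart. Its difference of -0.72 ± 0.19 (SE) missed the threshold (limma adjusted p = 0.0607). The humeral groups overlapped, at 9.01 to 9.86 and 9.16 to 9.79. All 8 dim probe sets of the opposite orientation pairs had positive differences in the femur, with a median of 0.20, none called. Of the 65 other such pairs, the dimmer one was higher in affected femur in 39, with a median of 0.04. Among the 7 of these whose brighter probe set was above 12, it was higher in 5, with a median of 0.14. The largest within-group spread of any gene's brightest probe set was that of RPL37, at 8.26 to 9.93 in non-affected and 8.11 to 9.76 in affected humerus. Its differences, -0.32 in the humerus and 0.39 in the femur, were not called.

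Other genes of the pathway were read from lists of known function. Of 14 other transcripts with a terminal oligopyrimidine tract, 7 were called between the sites, 2 higher in the femur and 5 lower, with a median of -0.14 (0.03 after normalisation, 3 called). This 50% is close to the 51.8% of all probe sets tested, and the median to their -0.12. As deposited, the scaffold protein RACK1, a part of the small subunit, differed by -0.41 ± 0.06 (SE) and the elongation factor subunit EEF1B2 by -0.41 ± 0.06 (SE). EEF1D, of the same factor, was higher by 0.38 ± 0.08 (SE) as deposited. After normalisation the differences of the 14 ran from -0.27 to 0.61, with 2 called higher and 1 lower. Of 27 ribosome assembly factors and subunits of RNA polymerase I, 16 (59.3%) were called, 4 higher and 12 lower, with a median of -0.13 (6 higher and 4 lower after normalisation). The export adaptor NMD3 differed by -1.15, the assembly factor RRS1 by -0.82 and WDR12 by -0.65, and RRP9, which binds the U3 RNA, by 0.56. Of 3 regulators, MYC was lower in the femur (-0.71) and TSC1 and TSC2, inhibitors of mTOR, were higher (0.28 and 0.46), all called on both scales. No gene of these 3 lists was called for status at either site.

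The proteins of the mitochondrial ribosome were read at 58 genes with the brightest probe set of each. As deposited, their median site difference was -0.13, with 7 called higher and 24 lower. These 53.4% and their median are close to the 51.8% and -0.12 over all probe sets tested. After normalisation the median of the 58 was -0.0080, with 9 called higher and 20 lower, where 51.3% of all were called. For status in the femur their median was -0.12, with 47 of 58 negative, against 0.01 and 8213 of 16799 over all. One of the 58 was called, where 1.14% of all were: MRPL18, lower by -0.71 ± 0.10 (SE, adjusted p = 0.00109). The difference of the 2 families in the femur was not tested. The array's probe sets for ribosomal RNA, controls that were left out of the tests, did not move together. For 5S RNA the values were 5.85 to 6.86 in the humerus and 4.001 to 5.29 in the femur, the lowest at the floor of 4. In the same order, 1 probe set for 18S RNA read 8.80 to 11.58 and 10.93 to 11.60, and another 11.38 to 13.21 and 12.52 to 12.96. For 28S RNA, 1 probe set read 10.46 to 13.43 and 12.83 to 13.04, and another 11.71 to 13.43 and 12.81 to 12.98.

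Mean RNA quality values differed by site, though not in 1 direction. The 3' minus 5' difference of the actin controls was 3.21 ± 0.29 (SD, n = 13) in the humerus and 2.78 ± 0.18 (SD, n = 8) in the femur. That of the GAPDH controls was 0.82 (0.42 to 1.06) and 0.71 (0.63 to 0.85), and that of the EF1A controls 0.18 (0.14 to 0.27) and 0.54 (0.27 to 0.84). The samples of the sites overlapped for each of these controls. The share of probe sets at the floor was 2.58% (1.91 to 3.35%) in the humerus and 4.96% (4.32 to 5.69%) in the femur, with no overlap. Their part in the site differences was not tested.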

How the data were processed

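The authors deposited 1 log2 value per probe set and array; per the submitters' processing notes the images were read with GCOS 1.1.1, and how arrays were normalised is not stated in the sources used here. Gene symbols came from the platform annotation. The 124 control probe sets and those with a mean under the 30th percentile were left out. The 2 close array pairs were averaged (SD of their difference under 0.25), and limma 3.58.1 in R 4.3.3 (lmFit, eBayes) was run on the deposited values. Status within a site, and the femoral minus the humeral status difference, were fitted with 4 group means. The other comparisons were fitted with site plus status. P-values were adjusted over all 16799 probe sets. The precision is limited by 21 samples. A gene is described by its brightest probe set unless another is named. Genes named were drawn mainly from members called in a comparison, the 5 with the smallest p per direction, the stalk proteins, RPSA, FAU and those of largest and smallest spread. Not all of these are described. RPL8, RPL15, RPL29, RPL38, RPS9, RPS16 and RPS23, for example, were called lower in the femur as deposited and not called after quantile normalisation. The members and lists were chosen with earlier results of these data known. The fits were tested on simulated data. Values were summarised in Python 3.11.15 (numpy 2.4.6, pandas 2.3.3) and drawn with matplotlib 3.10.9. Image files were not used here.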

Additional observations from a re-analysis of the deposited data

Results flagged for a closer look

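The status difference of the FAU probe set Ssc.11403.2.A1_at differed between the sites: the femoral minus the humeral difference was -3.07 (limma adjusted p = 0.00118).

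Within groups of 4 to 7 samples, 1 sample stood apart from the rest by Dixon's criterion in 22 of 364 tested groups; chance alone marks about 1 in 20. Of these, 7 were femur non-affected 1 and 2, the average of 2 close arrays, which was the highest of its group for RPS25 (13.53), RPLP1 (13.62), RPL27 (13.21), RPL12 (13.19), RPL34 (13.42) and RPS2 (13.86), and for the dim probe set of RPL35 (7.14). A further 4 were humerus affected 1: lowest for RPS3A (13.67), RPL17 (13.74) and the dim probe set of RPL9 (6.27), highest for RPL27A (13.80). Humerus non-affected 5 was lowest for RPS15 (13.63) and RPL10A (13.45) and highest for RPS19 (14.02). Femur affected 2 was highest for RPL31 (13.86) and lowest for the dim probe set of RPL24 (10.88). The others were femur affected 1 for RPS21 (13.42), femur affected 3 for RPL14 (13.13), femur non-affected 4 for RPS15A (5.81), femur non-affected 5 for RPLP0 (13.53), humerus affected 3 for RPL21 (13.41) and humerus non-affected 1 for the dim probe set of RPLP0 (5.95).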

How the results depend on the processing

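The number of members called between the sites was 31 after quantile normalisation, 45 with median centring and 49 of 59 with only the brightest probe set of each gene, against 74, and the median was -0.0044 and -0.086 under the first 2. For femoral status, 0 members were called with a filter at the 50th percentile or only the brightest probe sets. Both leave out the called FAU probe set. There were 0 calls with the femur fitted alone and 2 with 23 arrays, where RPS19BP1 was the second call. For the femoral minus the humeral status difference, 0 were called under the filter or with the brightest probe sets. Leaving out each sample in turn gave 1 to 2 calls for femoral status. There were 2 without humerus non-affected 2 or femur affected 4, where RPS19BP1 passed. The same gave 69 to 74 calls for site and 1 for the femoral minus the humeral status difference. The femoral status difference of the FAU probe set ran from -3.27 to -2.55. With quantile normalisation, the site difference turned positive for the bright probe sets of RPL6 (0.065), RPS29 (0.045), FAU (0.056), RPS13 (0.012), RPL4 (0.055), RPS4X (0.052), RPLP1 (0.074), RPS12 (0.028), RPS18 (0.0050), RPL27A (0.017), RPL27 (0.034), RPL31 (0.038), RPL7 (0.014), RPL11 (0.021), RPL14 (0.031), RPL13 (0.038), RPS21 (0.066), RPL9 (0.0056), RPS26 (0.051), RPS10 (0.13), RPS27 (0.15) and RPS19 (0.0019), of which RPS10 and RPS27 were called, and with median centring for RPS27A (0.091), RPS27 (0.10), RPL13A (0.063), RPS19 (0.057), RPS10 (0.056), RPS12 (0.012), RPS20 (0.023), both RPL31 probe sets (0.0043 and 0.017) and RPL9 (0.00046). For RPS18, RPL27 and RPL31 only the probe set with the value given turned positive with quantile normalisation, and their other bright probe sets stayed negative. Femoral status differences near 0 changed sign. RPL23 gave -0.0018 with median centring, and -0.011 to 0.086 over the affected and 0.0010 to 0.087 over the non-affected femoral samples left out. RPL12 gave -0.033 with median centring, -0.028 with 23 arrays, and -0.033 to 0.029 and -0.020 to 0.054 over the same. The brightest RPL27 probe set gave 0.00058 with array weights, and -0.027 to 0.0017 and -0.028 to 0.042. Over the non-affected femoral samples left out, the dim RPL27 probe set gave -0.034 to 0.21 and a dim RPS28 probe set -0.11 to 0.027. The cause of these shifts was not tested. No filter, leaving out probe sets at the floor, trend and robust variances and array weights moved no count of calls or median past the bounds used. Quantile normalisation within each site, added after seeing the data, did not either. No paired analysis was possible because the labels do not say which animals were sibs. Signal over background limits the dim probe sets, 8 of which were not tested.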
